A study of Tetranychus cinnabarinus with 8 samples.

Results

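The data describe the early response of Tetranychus cinnabarinus, the carmine spider mite, to curcumin: 2 libraries of mites collected 24 h after spraying with curcumin and 2 libraries of mites collected 24 h after spraying with solvent alone, 4 of the 8 RNA-Seq libraries of the series. Spider mites feed on the cell contents of leaves and are pests of many crops. Curcumin, the yellow polyphenol of turmeric, is being studied as a plant-derived acaricide, and early changes in transcript levels are one way to look for the genes that respond to such a compound. Vitellogenins are yolk precursors of egg-laying females, and the endoplasmic reticulum (ER) is where secreted proteins such as yolk are folded and sent on or degraded.

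The curcumin group at 24 h (replicates 1 and 2) was sprayed with curcumin at 2.64 mg/mL in water with Tween 80 and acetone, and the solvent group at 24 h (replicates 1 and 2) with that mixture without curcumin. Both groups were 2-day-old adults of a susceptible strain reared on cowpea, and they shared the solvent, the host plant and the age. By the study's methods the mites were females, each replicate pooled the mites of 3 dishes of 1 experiment, and only live mites were taken, so mites killed by 24 h are in no library. Whole mites were used (the labels say adult tissue), no tissue markers were given, and in such bulk samples fewer cells of a type and less RNA per cell cannot be told apart. Reads were mapped to the genome of the sister species T. urticae, whose gene identifiers (tetur...) are used here, with descriptions from the study's own lists where it gives one.

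The reads estimated on genes came to between 8329108 and 8524057 per library at 24 h, and the 10 most abundant genes of each library took 21.7% to 22.4% of them. Only gene models of 146 bp or more were used. Of the 15666 such models listed in any of the 8 libraries, 15414 were listed in at least 1 library at 24 h, 13742 in all 4, and 12193 had enough reads for the test. The test was edgeR's quasi-likelihood test on the estimated reads with Benjamini-Hochberg adjustment. It used all 8 libraries, so that the 4 groups shared 1 estimate of the spread, with 4 residual degrees of freedom. Levels are given as RPKM, the reads on a gene scaled for its length and for the reads mapped in the library.

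At 24 h, 0 of the 12193 genes (0%) had an adjusted p under 0.05 in edgeR's test, and 0 met the thresholds that the study used, an adjusted p of 0.001 with a log2 fold change of at least 1 in size. The study applied these thresholds with another algorithm, on RPKM as the expression level, so its count of genes is not directly comparable. The lowest adjusted p by edgeR was 0.136. Before adjustment, 904 genes (7.41%) had a p under 0.05, of which 464 (3.81%) were higher and 440 (3.61%) lower with curcumin than with solvent. When libraries were scaled by their total reads only, in place of edgeR's TMM method, the same count was 327 higher and 605 lower. Both curcumin libraries were above both solvent libraries in 2471 genes (20.3%) and below both in 2756 genes (22.6%). DESeq2, an alternative test on the same reads, gave an adjusted p under 0.05 for 39 of the 6047 genes to which it gave one (0.645%), 26 higher and 13 lower, and 9 of them met the study's thresholds. In all 39 the groups did not overlap. With only the 4 libraries at 24 h, edgeR called 15 genes, 13 of them among those 39. The number of genes called at 24 h thus depended on the test and on the libraries fitted.

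The changes were small for most genes. The middle 50% of the log2 fold changes, curcumin over solvent, lay between -0.18 and 0.16, the middle 90% between -0.65 and 0.54, and the median size was 0.17. A log2 fold change of at least 1 was reached by 154 genes that were higher and 261 that were lower with curcumin, and of at least 2 by 28 and 41. Among the genes past 1, 64 that were higher and 121 that were lower also had an unadjusted p under 0.05.

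**Figure D1:**
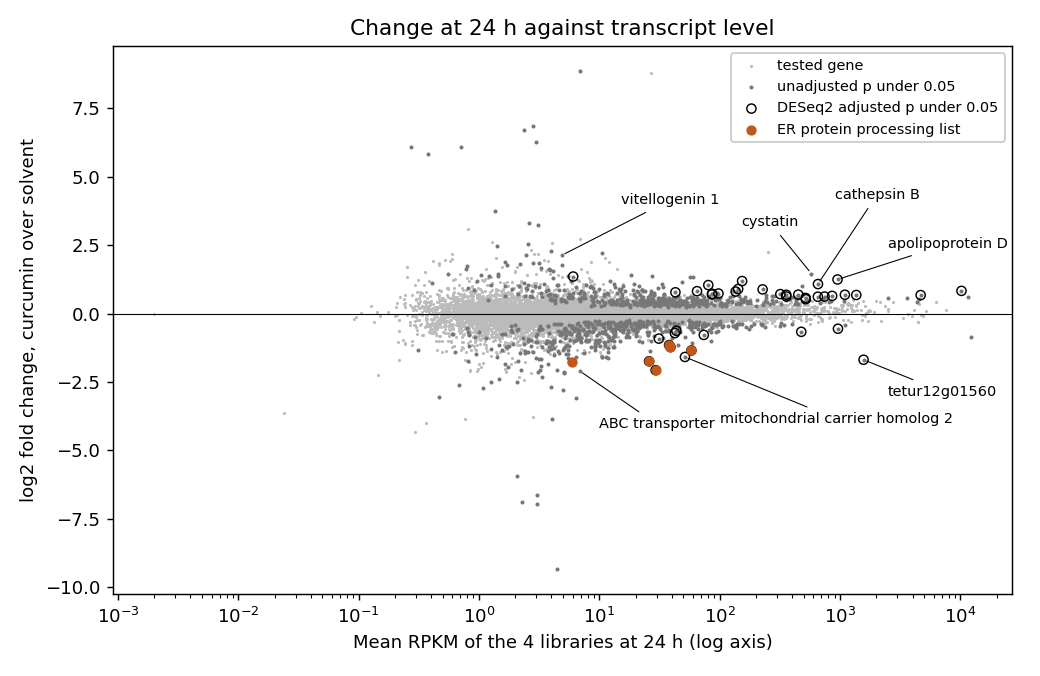
Each dot is 1 of the 12193 tested genes: its mean RPKM over the 4 libraries at 24 h (x, log axis) against its log2 fold change, curcumin over solvent (y). Dark dots are the 904 genes with an unadjusted p under 0.05, circles the 39 genes with a DESeq2 adjusted p under 0.05, and orange dots the 6 ER protein processing genes, all below 0. The fitted values beyond 5 in size are genes with few reads or none in 1 group.

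The 6 genes that the study assigned to protein processing in the ER were all lower with curcumin, with a median log2 fold change of -1.55 against -0.01 over all tested genes, and in all 6 the groups did not overlap (22.6% of all tested genes were lower without overlap) and the unadjusted p was under 0.05 (3.61% of all tested genes, lower). These 6 genes, and those of the other lists below except the one for 48 h, are from the list that the study picked for change in these same libraries. Their directions and counts are therefore set by that choice and describe the genes without testing them. Their functions are not described beyond the pathway. The identifiers tetur03g00110, tetur03g00120, tetur03g00200 and tetur03g00210 are close in number. With curcumin, tetur03g00210 had 144.9 and 85.0 estimated reads and tetur08g07940 144.9 and 82.4. With solvent they had 447.0 and 364.0 against 562.5 and 440.3. Whether the 6 genes are copies that share reads was not tested, so they may not be 6 separate measurements. For tetur08g07940, which had the lowest values relative to solvent, the RPKM was 14.2 and 8.26 in the curcumin libraries, against 53.7 and 41.3 in the solvent libraries. This was a log2 fold change of -2.07 ± 0.29 (SE), with an adjusted p of 0.136 by edgeR and 3.29e-09 by DESeq2. The study designed a primer pair for qRT-PCR on this gene, shown because the primers are the only sequence of the gene model in the sources used here:
tetur08g07940 forward: cgatcattcaagaggcgata
tetur08g07940 reverse: ttgatggacttggttggtca

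tetur03g00210 had 14.8 and 8.87 RPKM in the curcumin libraries, against 44.4 and 35.5 in the solvent libraries (log2 fold change -1.74 ± 0.27, edgeR adjusted p = 0.173). tetur32g02000 had 32.6 and 32.8 RPKM with curcumin, against 101 and 66.5 with solvent (-1.35 ± 0.19, edgeR adjusted p = 0.136). In both genes the lower solvent library was still more than 2-fold above the higher curcumin library. tetur03g00120 had 25.8 and 20.8 RPKM with curcumin, against 59.0 and 50.4 with solvent (-1.22 ± 0.15, edgeR adjusted p = 0.136). tetur03g00110 had 23.5 and 23.4 RPKM with curcumin, against 52.8 and 52.3 with solvent, and its replicates were the closest of the 6 (-1.15 ± 0.19, edgeR adjusted p = 0.236). The sixth, tetur03g00200, was the least abundant, with 3.19 and 2.17 RPKM in the curcumin libraries against 10.3 and 8.17 in the solvent libraries (-1.77 ± 0.49, edgeR adjusted p = 0.51). DESeq2 gave an adjusted p under 0.05 to the 5 more abundant genes, and no adjusted p to tetur03g00200. Leaving out solvent replicate 2 gave tetur32g02000 an edgeR adjusted p of 0.0398, the only call that any of the 4 fits with a library left out made.

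At 48 h, in libraries that share no sample with those of 24 h, the same 6 genes were again lower with curcumin, with log2 fold changes between -2.24 and -1.51. All but tetur03g00200 are on the study's list for 48 h too, so they were also picked for change at 48 h. Their side at 48 h is thus no separate test. At 48 h 3 of the 6, tetur32g02000, tetur03g00110 and tetur03g00120, had an edgeR adjusted p of 0.0113. The p-values at both times rest on the same estimate of each gene's spread. The log2 fold change at 24 h was the less negative in each of the 6, by 0.17 to 0.93. The widest gap was that of tetur03g00110, 0.93 ± 0.28 (SE), and edgeR's adjusted p for the gap lay between 0.399 and 0.942, in a test that called 0 genes of all those tested.

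**Figure D2:**
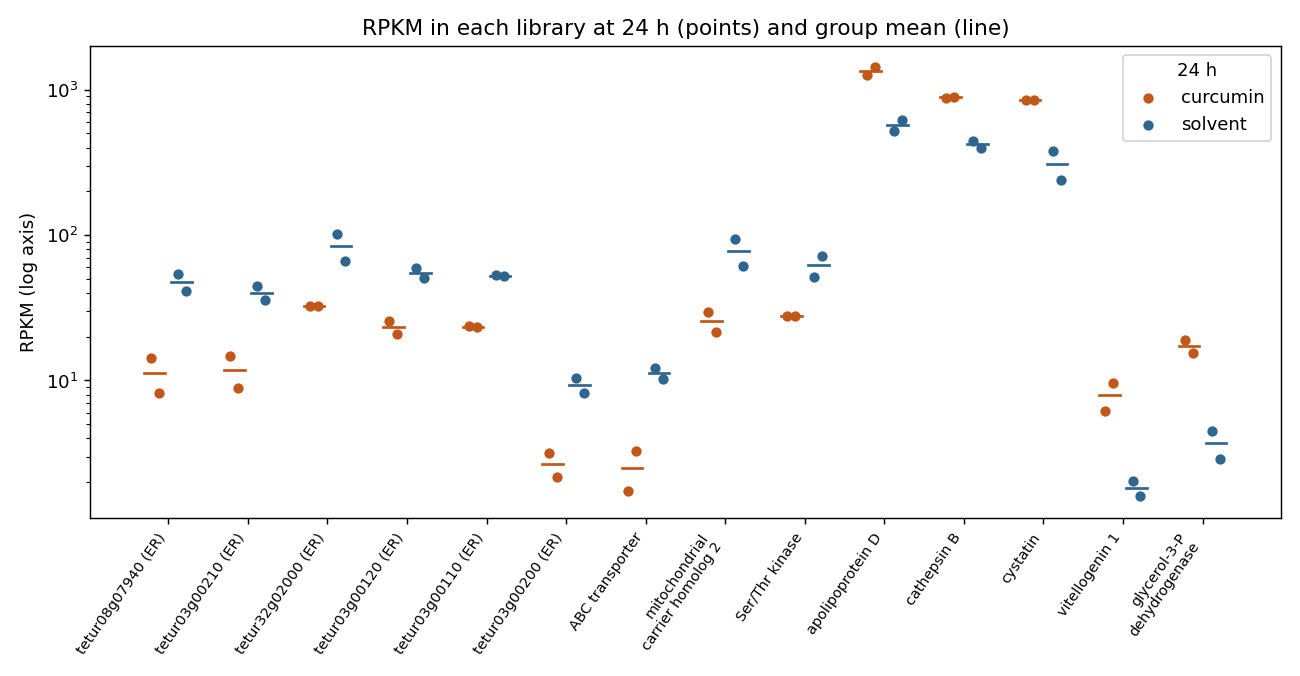
RPKM (log axis) of 14 genes in each library at 24 h, with curcumin left (orange) and solvent right (blue). Points are single libraries and lines are the mean of 2. In every gene shown both curcumin libraries lie on 1 side of both solvent libraries, below them in the first 9 genes and above them in the last 5. The 14 genes were picked from the named genes, and other named genes, such as tetur33g00620 and tetur04g07240, overlapped between the groups. Of all tested genes, 22.6% were lower and 20.3% higher without overlap.

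The lipid, yolk and phospholipid list has 4 genes, and in all 4 both curcumin libraries were above both solvent libraries, as in 20.3% of all tested genes. The 3 that were tested had a median log2 fold change of 2.13, with an unadjusted p under 0.05 in each (3.81% of all tested genes, higher) and an adjusted p under 0.05 in 0. Apolipoprotein D (tetur09g04920), a lipocalin that carries small lipids, had 1253 and 1423 RPKM in the curcumin libraries, against 517 and 618 in the solvent libraries. Its log2 fold change was 1.25 ± 0.17, with an adjusted p of 0.136 by edgeR and 1.18e-13 by DESeq2, the smallest that DESeq2 gave. Vitellogenin 1 (tetur39g00730), a yolk precursor, was at a low level, with 6.21 and 9.66 RPKM in the curcumin libraries against 2.02 and 1.59 in the solvent libraries (2.13 ± 0.43, edgeR adjusted p = 0.365). Glycerol-3-phosphate dehydrogenase (tetur23g01300), which links glycolysis with lipid synthesis, had 19.0 and 15.4 RPKM with curcumin, against 4.52 and 2.87 with solvent (2.23 ± 0.68, edgeR adjusted p = 0.565). With only the 4 libraries at 24 h the edgeR adjusted p was 0.0331 for apolipoprotein D, 0.0499 for vitellogenin 1 and 0.0336 for glycerol-3-phosphate dehydrogenase.

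Phospholipase A2 (tetur05g07400), which releases fatty acids from membrane lipids, had too few reads for the test. It had 5.8 and 19.3 estimated reads in the curcumin libraries, and 0 and 1.5 in the solvent libraries. The ratio of the summed estimated reads, scaled for library size, was 18.1. An exact 95% interval on reads rounded to whole numbers was 4.31 to 1080. It covers counting error only, and its upper limit depends on how the few solvent reads were rounded. No overlap was seen, but the solvent side rests on fewer than 2 reads. The study's qRT-PCR also found this gene higher with curcumin, by a smaller change than in its RNA-Seq.

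A protease and a protease inhibitor were both higher with curcumin. Cathepsin B (tetur08g05030), a cysteine protease of lysosomes and of the mite gut, had 881 and 894 RPKM in the curcumin libraries, against 447 and 399.6 in the solvent libraries (1.08 ± 0.26, edgeR adjusted p = 0.484, DESeq2 adjusted p = 0.00028). Cystatin (tetur09g03650), an inhibitor of cysteine proteases, had 843 and 848 RPKM with curcumin, against 377 and 241 with solvent (1.46 ± 0.35, edgeR adjusted p = 0.484, DESeq2 adjusted p = 0.193). In both the curcumin replicates lay within a few percent of each other, and in cystatin the spread was between the solvent libraries. Cystatin was higher with curcumin at 48 h too, with 382 and 838 RPKM in the curcumin libraries against 210.3 and 135 in the solvent libraries. The study lists it for 48 h as well.

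All 5 genes of the transport and channel list were lower with curcumin (median log2 fold change -1.64, all 5 with an unadjusted p under 0.05, against 3.61% of all tested genes, and 0 with an adjusted p under 0.05). The ABC transporter tetur19g01690, of a family of pumps that use ATP and include exporters of toxins, had 1.75 and 3.27 RPKM in the curcumin libraries, against 12.1 and 10.2 in the solvent libraries (-2.10 ± 0.45, edgeR adjusted p = 0.446). Its gene model is 456 bp, and its primer pair is given for the same reason as above:
tetur19g01690 forward: tgattctcgatgagccaaca
tetur19g01690 reverse: agaaggaccagtccatcgtg

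Mitochondrial carrier homolog 2 (tetur53g00110), a protein of the outer mitochondrial membrane, had 29.5 and 21.6 RPKM with curcumin, against 93.3 and 61.4 with solvent (-1.59 ± 0.31, edgeR adjusted p = 0.365, DESeq2 adjusted p = 0.000134). The monovalent cation/H+ antiporter subunit B (tetur08g05720) had 4.88 and 6.41 RPKM with curcumin, against 21.8 and 14.1 with solvent (-1.64 ± 0.38, edgeR adjusted p = 0.465). A hyperpolarization-activated ion channel (tetur25g00970), of a family that carries currents in excitable cells, had 7.01 and 8.88 RPKM with curcumin, against 22.6 and 14.7 with solvent. The groups did not overlap in any of these 3. The fifth, tetur02g00040, which carries ion transport and MAPK signaling terms, had 0 reads in both curcumin libraries against an estimated 14.0 and 11.8 with solvent. Against 3 reads over the curcumin group this was 8.17-fold lower with curcumin (edgeR adjusted p = 0.365). This bound, like those below for other genes at 0, puts 3 reads in place of 0. It allows for no counting error in the other group and no spread between replicates, so the true fold can be smaller. tetur02g00040 was at 0 in both curcumin libraries at 48 h as well, against 15.7 and 11.0 RPKM in the solvent libraries. The study lists it for 48 h too.

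The 6 genes of the neural and signal transduction list did not share a direction: 4 were higher and 2 lower with curcumin, each without overlap between the groups (20.3% of all tested genes higher and 22.6% lower). The 2 lower ones were a Ser/Thr protein kinase (tetur10g04980), with 27.9 and 27.7 RPKM in the curcumin libraries against 51.8 and 72.4 in the solvent libraries (-1.15 ± 0.23, edgeR adjusted p = 0.374), and a RabGAP/TBC protein (tetur04g07610), of a family that switches off small GTPases of vesicle traffic, with 4.28 and 9.38 against 11.4 and 19.3 RPKM. The gene described as similar to gamma-aminobutyric acid (tetur05g08080), GABA being an inhibitory transmitter, had 24.9 and 54.0 RPKM with curcumin, against 14.4 and 16.5 with solvent (1.36 ± 0.46, edgeR adjusted p = 0.584). Here the curcumin replicates were more than 2-fold apart. Ras GTPase (tetur08g03710), a switch of growth signalling, had 11.0 and 3.17 RPKM with curcumin, against 2.14 and 0 with solvent (2.58 ± 1.31, edgeR adjusted p = 0.705).

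The other 2 genes of that list had no reads in either solvent library. The neuromedin-K receptor (tetur453g00010), a receptor for a tachykinin neuropeptide in vertebrates, had 14.4 and 12.3 estimated reads with curcumin against 0 and 0 with solvent. Against 3 reads over the solvent group this was 9.38-fold higher with curcumin (edgeR adjusted p = 0.465). The study's qRT-PCR also found this gene higher with curcumin, by less than this bound. The scaffold protein tetur02g05380 had 15.7 and 3.4 reads with curcumin against 0 and 0 with solvent. It was 6.72-fold higher against 3 reads over the solvent group (edgeR adjusted p = 0.593). This bound was 11.0 without curcumin replicate 2 and 2.4 without curcumin replicate 1. The gene model of tetur02g05380 is 146 bp, the shortest length kept. The primers for the neuromedin-K receptor gene were:
tetur453g00010 forward: gctctctgttggcttccatt
tetur453g00010 reverse: cgcgatgaatcagatgaaat

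Of the 7 genes listed for the nucleus and DNA, 6 were lower with curcumin, 5 of them without overlap and with an unadjusted p under 0.05, where an equal pair of gene models counts as 2. Over all tested genes the shares were 22.6% and 3.61%. The topoisomerase tetur10g02970, of the enzymes that relieve twists in DNA, and tetur10g05814 have the same length, 330 bp, and the same reads in every library, so they are 1 measurement: 8.36 and 2.03 RPKM in the curcumin libraries, against 10.6 and 21.2 in the solvent libraries (-1.58 ± 0.52, edgeR adjusted p = 0.581). Thioredoxin-like protein 4A (tetur03g04050), a component of the spliceosome, had 7.43 and 6.13 RPKM with curcumin, against 16.6 and 14.8 with solvent (-1.20 ± 0.23, edgeR adjusted p = 0.365). Its replicates were close in both groups.

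Recombination activating protein 1 (tetur33g00620) overlapped between the groups, with 3.80 and 6.46 RPKM with curcumin against 6.40 and 24.8 with solvent. tetur118g00010, assigned to cell cycle and oocyte meiosis, had 0 reads in both curcumin libraries against an estimated 25.6 and 146.7 with solvent. Against 3 reads over the curcumin group this was 54.5-fold lower with curcumin (edgeR adjusted p = 0.565), with no allowance for the spread between replicates. This bound rested on solvent replicate 2, without which it was 16.3, and without solvent replicate 1 it was 92.1. At 48 h the gene had 0 and 72.4 estimated reads with curcumin against 0 and 1.3 with solvent. tetur04g07240, assigned to RNA degradation, had 106 RPKM in curcumin replicate 2 and 0 in curcumin replicate 1, against 0 and 0.19 RPKM in the solvent libraries. Nearly all of its reads were thus in 1 library. Without that library the log2 fold change was -2.26, where it was 8.78 with all libraries.

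Among the cytoskeleton and adhesion genes, talin-1 (tetur379g00020), which links integrins to actin, had 8.45 and 2.56 RPKM in the curcumin libraries against 13.5 and 12.6 in the solvent libraries (-1.24 ± 0.55, edgeR adjusted p = 0.67). tetur12g01560, assigned to regulation of the actin cytoskeleton, was among the most abundant of the named genes, with 958 and 517 RPKM in the curcumin libraries against 3116 and 1681 in the solvent libraries (-1.69 ± 0.34, edgeR adjusted p = 0.365, DESeq2 adjusted p = 0.0493). Replicate 1 was almost 2-fold above replicate 2 in both groups. tetur02g05830, of the focal adhesion and ECM-receptor pathways, was higher, with 22.4 and 30.1 RPKM with curcumin against 16.2 and 8.49 with solvent (1.10 ± 0.30, edgeR adjusted p = 0.51).

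In the autophagy and energy list, 3 of 4 genes were higher with curcumin, but their replicates were far apart. Beclin 1 (tetur107g00030), which starts autophagosome formation, had 5.44 and 21.2 RPKM in the curcumin libraries against 4.10 and 3.07 in the solvent libraries (1.89 ± 1.12, edgeR adjusted p = 0.732). The oxidative phosphorylation gene tetur06g03770 had 313 and 526 RPKM with curcumin against 147 and 27.9 with solvent (2.27 ± 1.55, edgeR adjusted p = 0.782). The standard errors of both were large beside the change. The glycolysis gene tetur13g00050 had 13.2 and 22.6 RPKM with curcumin against 8.74 and 0 with solvent, and the heparan sulfate gene tetur01g05790 had 13.8 and 15.7 against 21.1 and 39.8 RPKM.

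The study's whole list for 24 h held 111 genes, of which 10 gene models were shorter than 146 bp. None of those 10 was listed in curcumin replicate 2, whereas 8 were in curcumin replicate 1, 10 in solvent replicate 1 and 8 in solvent replicate 2, and they were left out here. Of the 101 others, 91 had enough reads for the test, with a median log2 fold change of -1.20. Of these, 24 were higher and 43 lower with an unadjusted p under 0.05, against 3.81% and 3.61% of all tested genes. An edgeR adjusted p under 0.05 was reached by 0. DESeq2 gave an adjusted p to 14, of which 11 were under 0.05, against 0.645% of all genes to which it gave one. Since the list was picked on these libraries, these counts describe it and test nothing. By abundance, 39 of the 91 had a mean RPKM of 1 to 10, 46 of 10 to 100, 5 of 100 to 1000 and 1 over 1000. The 71 tested genes without a description had a median of -1.22, and the 20 described ones -0.03.

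Several genes without a description in the study's lists had some of the smallest p-values. tetur06g06661 had 8.26 and 19.2 RPKM in the curcumin libraries, from 35.7 and 81.1 estimated reads, and 0 reads in both solvent libraries. It was 41.0-fold higher with curcumin against 3 reads over the solvent group (edgeR adjusted p = 0.173), or 24.9-fold without curcumin replicate 2. At 48 h it was at 0 in both curcumin libraries and in solvent replicate 2, with 0.144 RPKM in solvent replicate 1, so its reads were all but confined to the curcumin libraries at 24 h. tetur04g04350 had 9.45 and 7.96 RPKM with curcumin against 3.60 and 3.23 with solvent (log2 fold change 1.35 ± 0.24, edgeR adjusted p = 0.25, DESeq2 adjusted p = 0.000407). tetur09g04470 had 306 and 283 RPKM with curcumin against 158 and 163 with solvent (0.88 ± 0.17, DESeq2 adjusted p = 0.00028). These were tight in both groups, as was tetur30g01790, with 166 and 204 RPKM with curcumin against 98.8 and 101 with solvent (0.90 ± 0.14, edgeR adjusted p = 0.173). tetur54g00060, a hypothetical protein, had 1.60 and 1.96 RPKM with curcumin against 9.65 and 6.96 with solvent (-2.16 ± 0.38, edgeR adjusted p = 0.25). tetur01g03160 was lower by less, with 33.4 and 34.8 RPKM with curcumin against 56.1 and 50.2 with solvent (-0.63 ± 0.12, edgeR adjusted p = 0.355).

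Among genes of at least 10 RPKM, tetur36g00010 had 4.05 and 7.20 RPKM with curcumin against 17.7 and 16.4 with solvent (-1.60 ± 0.36, edgeR adjusted p = 0.465), 1 of the 5 largest lower values without overlap. On the higher side, tetur32g02276 had 23.6 and 14.4 RPKM with curcumin against 4.28 and 6.02 with solvent (1.88 ± 1.02, edgeR adjusted p = 0.718), and tetur14g00750 had 18.9 and 23.8 against 9.61 and 4.30 RPKM (1.63 ± 0.74, edgeR adjusted p = 0.679). The standard errors of the higher pair were large. Smaller changes with closer replicates were seen in tetur17g03540, with 425 and 441 RPKM with curcumin against 299.7 and 267 with solvent (0.62 ± 0.11, edgeR adjusted p = 0.25, DESeq2 adjusted p = 0.0186), and in tetur26g01510, with 101 and 112 against 65.2 and 66.7 RPKM (0.70 ± 0.12, edgeR adjusted p = 0.25, DESeq2 adjusted p = 0.0125). Of the hypothetical proteins with a primer pair, tetur29g01520 had 0 reads in both curcumin libraries against an estimated 5.2 and 11.2 with solvent. It was 5.19-fold lower with curcumin against 3 reads over the curcumin group (3.35-fold without solvent replicate 2). tetur16g02830 had reads in solvent replicate 1 alone, at 9.12 RPKM.

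Presence and absence between the groups was rare and mostly rested on few reads. With at least 1 read in both curcumin libraries, 27 genes had none in either solvent library, of which 5 had at least 5 reads and 2 at least 10 reads in both curcumin libraries. The 2 were tetur06g06661 and the neuromedin-K receptor gene. In the other direction, 61 genes had no read in either curcumin library and at least 1 in both solvent libraries, of which 9 had at least 5 reads and 2 at least 10 in both solvent libraries, tetur118g00010 and tetur02g00040.

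The balance of higher and lower genes differed between classes of transcript level. Under 1 RPKM, 10 genes were higher and 14 lower with curcumin at an unadjusted p under 0.05, of 852 tested. Among genes with a mean RPKM of 1 to 10 over the 4 libraries, 109 were higher and 188 lower, of 5300. Among those of 10 to 100 RPKM, 253 were higher and 209 lower, of 5221. Among the 747 genes of 100 to 1000 RPKM, 82 were higher and 26 lower, and among the 73 genes over 1000 RPKM, 10 were higher and 3 lower. The share of genes with an unadjusted p under 0.05 went up with level too, from 2.82% under 1 RPKM to 17.8% over 1000 RPKM, while the share with a log2 fold change of at least 1 in size went down, from 9.39% to 1.37%. The median standard error of the log2 fold change was 0.52 under 1 RPKM, 0.28 from 1 to 10, 0.15 from 10 to 100, 0.16 from 100 to 1000 and 0.19 over 1000.

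The median log2 fold change was -0.04 from 1 to 10 RPKM, 0.07 from 100 to 1000 and 0.14 over 1000. With scaling by total reads only, these medians were -0.11, 0 and 0.07, so the class of 100 to 1000 RPKM then had no shift. From 10 to 100 RPKM the balance turned over with that scaling, to 166 higher and 312 lower at an unadjusted p under 0.05, and it was 215 and 132 with DESeq2. From 1 to 10 RPKM it was 75 and 227 with that scaling and 51 and 92 with DESeq2. The excess of higher over lower genes from 100 to 1000 RPKM was 69 against 46 with that scaling and 113 against 27 with DESeq2. With each of these 3 scalings the median was lowest from 1 to 10 RPKM and highest over 1000 RPKM.

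**Figure D3:**
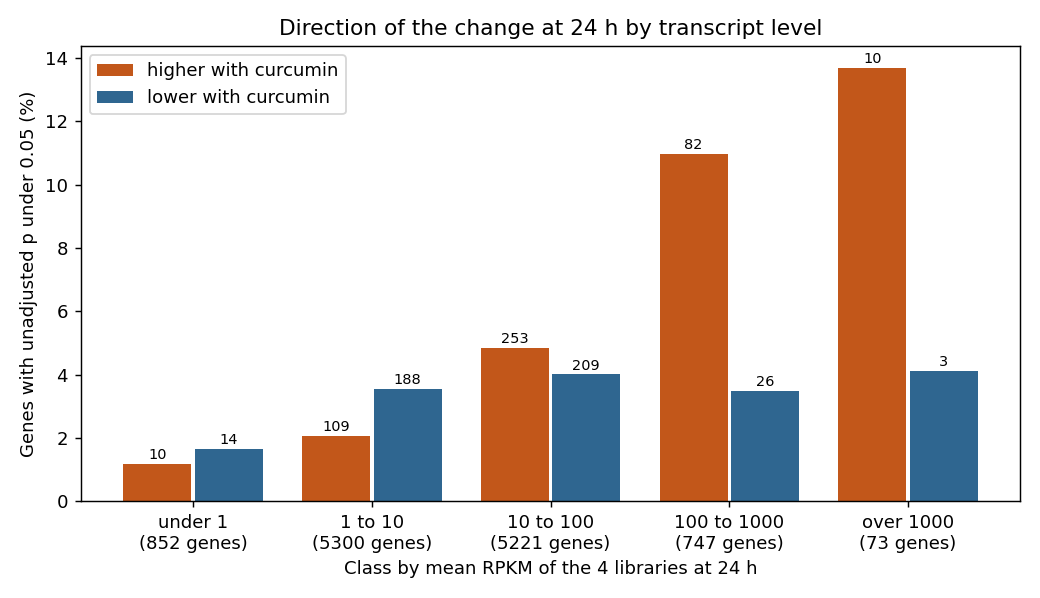
Share of tested genes with an unadjusted p under 0.05 in edgeR's test (y, %), by class of mean RPKM at 24 h (x), with genes higher with curcumin in orange (left) and lower in blue (right). Numbers above the bars count genes. Above 100 RPKM the orange bars, 82 and 10 genes, are over the blue ones, 26 and 3 genes, and from 1 to 10 RPKM the blue bar, 188 genes, is over the orange one, 109 genes.

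All 10 of the most abundant transcripts differed by less than 2-fold. tetur01g02660 had 12795 and 13276 RPKM in the curcumin libraries against 7373 and 7386 in the solvent libraries (0.83 ± 0.23, edgeR adjusted p = 0.51, DESeq2 adjusted p = 0.00382). tetur09g03620 had 12478 and 15290.0 RPKM with curcumin against 9179.9 and 9367 with solvent (0.59 ± 0.23, edgeR adjusted p = 0.619). tetur31g00820 had 5192 and 6278 RPKM with curcumin against 3697 and 3532 with solvent (0.68 ± 0.22, DESeq2 adjusted p = 0.0493). tetur18g03020 went furthest the other way, with 7913 and 9512 RPKM with curcumin against 13031 and 18469 with solvent (-0.84 ± 0.29, edgeR adjusted p = 0.593). The long gene models tetur39g00810 and tetur03g09300, of 5481 and 8054 bp, had log2 fold changes of 0.11 ± 0.18 and -0.06 ± 0.17.

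Replicates at 24 h were hardly closer to each other than to the other group. Over the 12193 tested genes, the SD of the log2 ratio of RPKM + 0.1 was 0.556 between the curcumin replicates and 0.546 between the solvent replicates. Across the groups it was 0.549 between curcumin replicate 1 and solvent replicate 1, 0.605 between curcumin replicate 1 and solvent replicate 2, 0.604 between curcumin replicate 2 and solvent replicate 1, and 0.615 between both second replicates. The first pair across the groups thus differed by no more than a pair of replicates. Pearson's r across genes was 0.97 for each pair of replicates and between 0.963 and 0.971 across the groups, where genes are not independent replicates. A difference of at least 2-fold was seen in 613 genes between the curcumin replicates, in 577 between the solvent replicates and in 602 to 763 across the groups.

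By this SD the groups stood apart more clearly among abundant genes. From 100 to 1000 RPKM the SD was 0.263 between the curcumin replicates and 0.228 between the solvent replicates, against 0.257 to 0.377 across the groups. Over 1000 RPKM, with 73 genes, the SD was 0.268 and 0.24, against 0.344 to 0.482 across the groups. There the middle 68% of the log2 ratios spread by ±0.259 between the curcumin replicates and ±0.175 between the solvent replicates. Across the groups it was ±0.261 to ±0.364, so by that measure the lowest pair was level with the curcumin replicates. Under 1 RPKM the SD was 0.785 and 0.741, against 0.775 to 0.815 across the groups, so curcumin and solvent could not be told apart there by the SD.

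**Figure D4:**
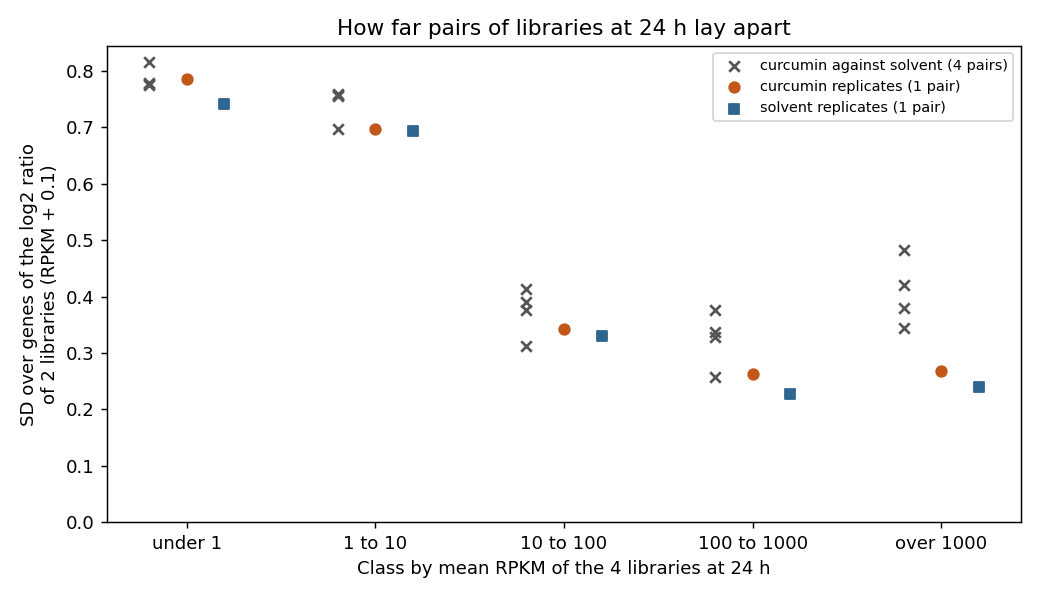
SD over genes of the log2 ratio of RPKM + 0.1 between 2 libraries at 24 h (y), by class of mean RPKM (x): crosses are the 4 pairs of a curcumin with a solvent library, circles the curcumin replicates and squares the solvent replicates. The crosses lie clear of both replicate pairs only over 1000 RPKM (73 genes), at 0.344 to 0.482 against 0.268 and 0.24. By the spread of the middle 68% of the log2 ratios, not drawn, the lowest pair across the groups there was ±0.261, against ±0.259 for the curcumin replicates.

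Genes that differed at 24 h were on the same side at 48 h about as often as not. Of the 464 genes higher with curcumin at 24 h at an unadjusted p under 0.05, 214 (46.1%) were on the same side at 48 h, and of the 440 lower ones 203 (46.1%), against 48.2% of all tested genes. At 48 h, 80 of the 464 (17.2%) had an unadjusted p under 0.05, 25 on the same side and 55 on the opposite side. So had 72 of the 440 (16.4%), 31 on the same side and 41 on the opposite, against 949 of all tested genes (7.78%). The p-values of a gene at 24 h and at 48 h rest on the same estimate of its spread. Genes picked for a small p at 24 h thus tend to have a small p at 48 h as well. The excess of 17.2% and 16.4% over 7.78% is therefore partly built in, and no conclusion is drawn from it. edgeR's test of whether the change at 24 h differed from that at 48 h called 0 genes at an adjusted p under 0.05, with 992 (8.14%) at an unadjusted p under 0.05, and DESeq2 called 55. In 1706 genes the groups did not overlap at either time, of which 741 were on the same side at both times and 965 on opposite sides.

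Vitellogenin 1 was among the genes on opposite sides. At 48 h it had 2.69 and 2.69 RPKM in the curcumin libraries against 23.9 and 10.9 in the solvent libraries. The change at 24 h exceeded that at 48 h by 4.84 on the log2 scale, with an adjusted p for the difference of 0.126 by edgeR and 4.14e-13 by DESeq2. Apolipoprotein D had 2373 and 2369 RPKM with curcumin against 2886 and 2522 with solvent at 48 h, so all 4 libraries at 48 h were above all 4 at 24 h (difference 1.43, adjusted p = 0.222 by edgeR and 3.06e-08 by DESeq2). tetur12g01560 had 3144 and 2393 RPKM with curcumin against 1541 and 1789.7 with solvent at 48 h, the other side from 24 h.

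**Figure D5:**
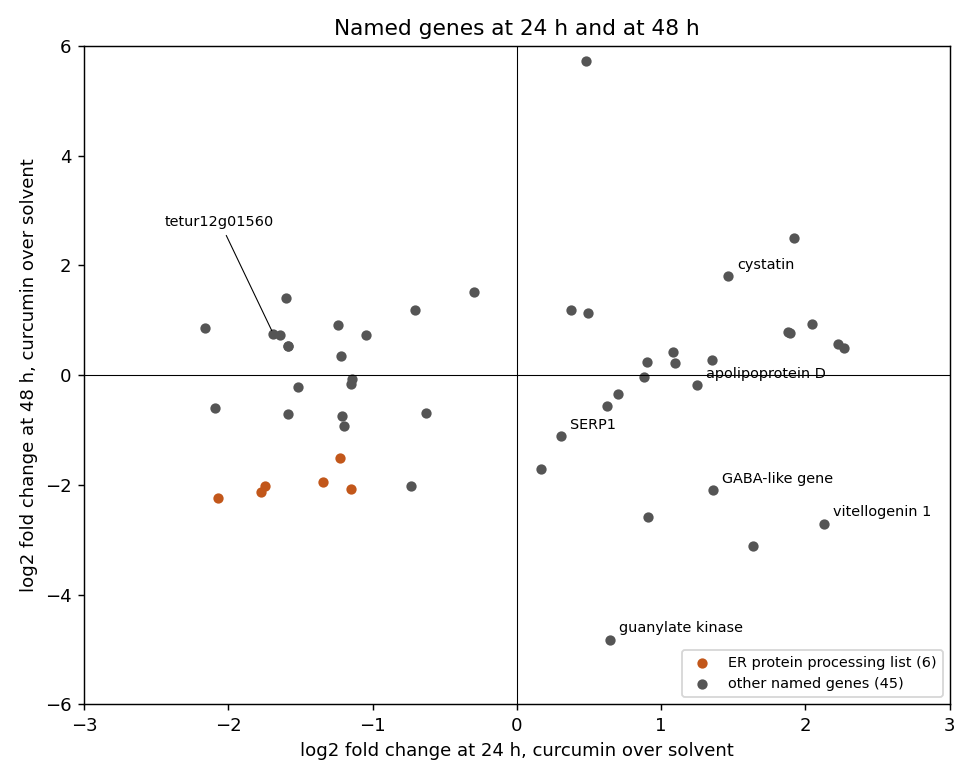
log2 fold change, curcumin over solvent, at 24 h (x) and at 48 h (y) for the 51 named genes that were tested and had reads in all 4 groups, without those named only for their high level. The 6 ER protein processing genes (orange) are below 0 at both times, whereas vitellogenin 1, the GABA-like gene and guanylate kinase are above 0 at 24 h and below 0 at 48 h. The ER genes except tetur03g00200 are on the study's lists for both times.

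Of the described genes of 146 bp or more on the study's list for 48 h, 4 are on its list for 24 h as well and were given above, cystatin, vitellogenin 1, the GABA-like gene and Ras GTPase, all higher with curcumin at 24 h. Of the 11 described genes on the list for 48 h alone, 8 were higher and 3 lower with curcumin. Their median log2 fold change was 0.38. The groups did not overlap in 5 higher and 2 lower genes, against 20.3% and 22.6% of all tested genes. An unadjusted p under 0.05 was seen in 1 of the 11, against 7.41% of all tested genes. That one was the Der f 2 allergen gene (tetur140g00020), a mite group 2 allergen, with 7.24 and 12.5 RPKM with curcumin against 17.7 and 15.3 with solvent (-0.73 ± 0.32, edgeR adjusted p = 0.67). Guanylate kinase (tetur07g05920), which makes GDP, had 64.8 and 81.0 RPKM with curcumin against 58.1 and 35.5 with solvent, without overlap (0.65 ± 0.43, edgeR adjusted p = 0.755). Stress-associated ER protein 1 (tetur28g01480), which steadies membrane proteins in the ER, had 462 and 505 RPKM with curcumin against 391 and 399 with solvent (0.30 ± 0.19, edgeR adjusted p = 0.747).

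The calcium-linked genes of that list differed among themselves. The phospholipase C family member (tetur05g03410), which makes the messenger that releases calcium, had 11.8 and 10.0 RPKM with curcumin against 13.9 and 13.001 with solvent (-0.30 ± 0.32, edgeR adjusted p = 0.859). Calmodulin (tetur04g01900), the calcium sensor, had 0 and 21.4 RPKM with curcumin against 12.05 and 3.27 with solvent, and calnexin (tetur611g00020), a calcium-binding chaperone of the ER, 0.139 and 11.0 against 18.4 and 0.282. In both, 1 library of each group was low and the other high, so no direction can be given. The transmembrane protein 20 gene (tetur12g00720) had 26.9 and 28.2 RPKM with curcumin against 25.1 and 17.6 with solvent, and the SIFa neuropeptide precursor gene (tetur22g02010) 9.46 and 7.33 against 3.03 and 6.19 RPKM, both without overlap and with edgeR adjusted p of 0.737 and 0.834. The PMP1-like gene tetur14g03800 had 3.82 and 7.98 RPKM with curcumin against 0.931 and 2.32 with solvent (1.92 ± 1.41, edgeR adjusted p = 0.784). The NEDD8-conjugating enzyme Ubc12 (tetur31g01490) and the RAB5-interacting protein gene (tetur21g00510) overlapped between the groups.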

How the data were processed

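By the study's methods, reads were filtered, then T-Map placed them on the T. urticae genome, and they were summarised per gene. The methods name Ion Proton sequencing and the labels an Illumina library protocol. The authors deposited, per library, 1 estimated count per gene without scaling. The authors deposited beside it the RPKM, normalized for length and mapped reads. Which tool counted the reads is not stated. Genes not listed were taken as 0, and gene models shorter than 146 bp were left out because their listing differed between libraries.

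Estimated counts were rounded. R 4.3.3 with edgeR 4.0.16 then fitted all 8 libraries in 4 groups, after filterByExpr and TMM, by the robust quasi-likelihood method with Benjamini-Hochberg adjustment. The common biological coefficient of variation was 0.14, and the scripts were tested on simulated data. Alternatives were DESeq2 1.42.0, limma 3.58.1 on log2(RPKM + 1) and log2(RPKM + 0.1) above a mean of 0.5 RPKM or unfiltered, total-read scaling, no low-count filter, the 4 libraries at 24 h alone, the replicate number as a block, all lengths, each library left out, and, added after seeing the data, equal gene models counted once and lower bounds with 1 library of the group with reads left out (leaving out 1 of the 2 libraries at 0 lowers a bound about 2-fold by construction). Standard errors come from edgeR's F statistic. Other values used Python 3.11.15 and pandas 2.3.3.

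Genes named were those with a primer, pathway or description in the study's 24 h lists, the 8 per direction with the smallest p and the 5 per direction with the largest change (10 RPKM or more) among genes without overlap, the 10 most abundant, and described genes of its 48 h list. These members and lists were chosen with earlier results of these data known. The study calls its replicates biological. edgeR's p-values rest on the spread between the 2 samples of each group, pooled over the 4 groups and drawn towards that of other genes. Gene sequences and genome positions were not used here, except the primers. The qRT-PCR data were not analysed. The study reports that all the genes it tested by qRT-PCR had a trend similar to its RNA-Seq.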

Additional observations from a re-analysis of the deposited data

Results flagged for a closer look

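Among the 70 named genes that were tested, 21 had groups that did not overlap at either time and lay on opposite sides at 24 h and at 48 h, while 19 lay on the same side at both. Over all 12193 tested genes the counts were 965 and 741. Many of the named genes were picked for groups without overlap at 24 h or from the study's lists. Both counts among the named genes are raised by that choice and test nothing. Among the 21, tetur10g02970 and tetur10g05814 are 1 measurement. Each value below is the log2 fold change at 24 h minus that at 48 h. edgeR's test of this difference passed for none of the 21 (adjusted p from 0.126 to 0.506), and DESeq2's passed for 9.

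On the positive side, higher with curcumin at 24 h and lower at 48 h, were guanylate kinase (tetur07g05920) by 5.47, vitellogenin 1 (tetur39g00730) by 4.84, tetur14g00750 by 4.75, the SIFa precursor (tetur22g02010) by 3.48, the GABA-like gene (tetur05g08080) by 3.46, apolipoprotein D (tetur09g04920) by 1.43, stress-associated ER protein 1 (tetur28g01480) by 1.41, tetur17g03540 by 1.18 and tetur26g01510 by 1.05. Ras GTPase (tetur08g03710) had a fitted 9.16, which depends on the prior count because both curcumin libraries at 48 h were at 0.

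On the negative side, lower with curcumin at 24 h and higher at 48 h, were tetur54g00060 (-3.02), tetur36g00010 (-3.002), tetur12g01560 (-2.44), the antiporter subunit tetur08g05720 (-2.37), talin-1 (tetur379g00020, -2.16), tetur10g02970 and its equal model tetur10g05814 (both -2.12), the phospholipase C gene tetur05g03410 (-1.81), tetur01g05790 (-1.78) and tetur07g08044 (-1.56). tetur29g01520 had a fitted -8.22, with both curcumin libraries at 24 h at 0. With 2 libraries a group no single library could be tested as standing apart.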

How the results depend on the processing

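The count of genes changed at 24 h at an adjusted p under 0.05 was 0 in edgeR's fit, 39 with DESeq2, 15 with only the 4 libraries at 24 h and 1 with limma on log2(RPKM + 0.1), and between 0 and 1 with a library left out. At the study's thresholds it was 0, and 9 with DESeq2. The count for the difference between 24 h and 48 h was 0, and 55 with DESeq2. The replicate block gave 0 for all 3 counts. The block was not used as a pairing, since same-numbered samples of different groups did not deviate together (correlations from -0.092 to 0.185). The remaining alternatives in processing also gave 0.

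Of the 70 named genes, 6 changed the sign of the log2 fold change in at least 1 alternative. Calmodulin (tetur04g01900) had 0.48, against -0.66 with limma on log2(RPKM + 1), filtered or not, -2.13 on log2(RPKM + 0.1) and -7.81 to 1.68 with a library left out. Calnexin (tetur611g00020) had -0.70, against 0.10 with the replicate block and -5.19 to 4.57 with a library left out. The others changed sign only with a library left out: tetur04g07240 ranged from -2.26 to 11.02, tetur13g04260 from -0.47 to 0.20, tetur31g01490 from -0.31 to 0.54, and tetur21g00510 from -0.10 to 1.55. tetur16g02830, with reads in 1 library alone at 24 h, was at 0 without that library. The cause was not tested. Unadjusted p under 0.05 was reached by 254 higher and 292 lower genes without curcumin replicate 2, and by 214 and 261 without solvent replicate 2, against 464 and 440 with all libraries. With 2 libraries per group and the depth given above, genes under 10 RPKM had the least certain changes.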

Other observations

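Some of the 39 genes called by DESeq2 at 24 h have identifiers close in number. They include tetur30g01750, tetur30g01790 and tetur30g01810, tetur01g02610, tetur01g02630 and tetur01g02660, and tetur09g04400, tetur09g04420 and tetur09g04470, all 9 higher with curcumin. In the other direction, tetur03g00110, tetur03g00120 and tetur03g00210 of the ER list are also close in number and were lower with curcumin. These were chosen after their values were seen. Whether they are neighbours or copies that share reads was not tested, since positions and sequences were not used here. tetur01g02610 had 963 and 1129 RPKM in the curcumin libraries against 664 and 681 in the solvent libraries, tetur30g01810 had 212 and 214 against 101 and 87.4 RPKM, and tetur09g04420 had 659.9 and 575 against 396 and 442 RPKM.

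Of the 39 genes, 11 were on the study's 24 h list. By level, 1 had a mean of 1 to 10 RPKM, 16 of 10 to 100, 17 of 100 to 1000 and 5 over 1000, and edgeR's adjusted p for them lay between 0.136 and 0.581. At 48 h 21 of the 39 were on the same side.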
